A study of Mus musculus with 9 samples.

Results

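T helper 2 (Th2) cells sorted from the lungs of mice with chronic allergic airway inflammation were compared with naive CD4+ T cells sorted from the spleen of sham-treated mice. Each group holds 3 arrays, so the comparison takes 6 of the 9 arrays of the series, and it was described across all 19937 genes that have a probe set of their own. In the chronic group, mice were sensitised by 3 intraperitoneal injections of 10 µg ovalbumin on 1.5 mg aluminium hydroxide on days 1, 14 and 21, inhaled a 1% ovalbumin aerosol 2 times a week over 12 weeks, and gave lung cells on day 104. The naive group came from spleens at day 29 of the sham treatment. A further 3 arrays of lung Th2 cells from the acute stage (the same sensitisation, 3 consecutive days of aerosol, day 29) entered the shared estimate of the spread and a direct comparison of the stages. Naive cells were sorted as CD4+ CD44- and lung Th2 cells as CD4+ CD69+, each with a further surface marker. All sorted cells, naive ones included, were stimulated through CD3 and CD28 for 8 h before RNA was taken. Every level is therefore one after stimulation, and how far the cells of each array responded was not tested. Tissue, enzymatic digestion (described for lungs), day of harvest, treatment and cell state change together between the groups and cannot be told apart. The titles call the arrays biological replicates, but whether each came from 1 mouse or a pool is not stated, and p-values measure the spread between these arrays.

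Th2 cells are the CD4+ T cells that drive allergic and anti-helminth responses. They depend on the transcription factor GATA3 and secrete IL-4, IL-5 and IL-13, which promote IgE production, eosinophilia and mucus secretion in the airways. A naive CD4+ T cell has not met its antigen, circulates through lymphoid organs with the help of the chemokine receptor CCR7, and is held quiescent by factors such as LEF1, KLF2 and BACH2. T cells that stay in a tissue after an immune response lose the lymphoid homing receptors and gain others, and chronic exposure to antigen is known for raising inhibitory receptors and IL-10.

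Levels are the deposited log2 values of a whole-transcript expression array, on which a difference of 1 is a 2-fold change. A gene passed the test at a Benjamini-Hochberg adjusted p under 0.05 over all genes in limma's moderated fit. Naive array 1 stood apart: across genes it correlated with the other naive arrays at r = 0.938 and 0.941, while those correlated with each other at 0.991. All results were therefore computed with and without it, and "in both fits" means with all 9 arrays and with naive array 1 left out. A gene named as risen or fallen passed in all 9 fits that leave out 1 array, unless the number of such fits is given (109 of the 161 that passed did so). Olfactory receptor genes, 1015 genes that T cells are not known to use, give the background: 95% of their means over all arrays lie below 6.53. Their median was 5.06, 4.94 and 5.10 on the naive arrays and 5.67, 5.51 and 5.15 on the chronic arrays. Of the 1015, 40 passed the test as higher and 0 as lower in chronic cells, against 3.68% and 4.2% of all genes. The median difference varied with the level, though not in one direction. It was 0.12 for genes with a mean below 5, -0.25 for the 2409 genes between 8 and 9, -0.16 for the 1124 between 9 and 10 and -0.03 for the 130 above 11, against 0.04 over all genes.

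With all arrays, 734 genes (3.68% of those tested) were higher and 837 (4.2%) lower in chronic lung Th2 cells than in naive cells, 341 and 265 of them by at least 2-fold. Leaving out naive array 1 raised these counts to 1164 higher (5.84%) and 2274 lower (11.4%). The chronic arrays moved them too: the counts were 422 and 312 without chronic array 1, 428 and 405 without chronic array 2, and 1200 and 857 without chronic array 3. Leaving out naive array 2 gave 507 and 534, acute array 2 gave 531 and 532, and acute array 3 gave 512 and 495. Of the genes called with all arrays, 708 higher and 821 lower ones were called again, and none changed sign. A total of 456 higher and 1453 lower genes passed only without naive array 1, and in 281 and 991 of them naive array 1 itself lay at or past the nearest chronic array. The 3 chronic and 3 naive arrays did not overlap for 3115 genes in the higher direction (15.6%) and 2449 in the lower (12.3%). Of the 734 higher genes, 143 had both group means under the olfactory background, and 363 a naive mean under it. When all arrays were shifted to the same olfactory median, every difference moved by -0.41 and the share of calls that were higher went from 46.7% to 8.7%; 310 of the 734 stayed higher, 39 turned negative, and all 837 lower genes stayed lower. A second quantile normalisation gave 55.5% higher and turned none of the calls, leaving out naive array 1 gave 33.9%, and any rise of under 0.41 changes sign with the olfactory scaling. Of 53 gene lists counted, 33 had a median above 0 as deposited and 8 with the olfactory medians set equal, so list medians below are relative to the deposited scale.

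**Figure D1:**
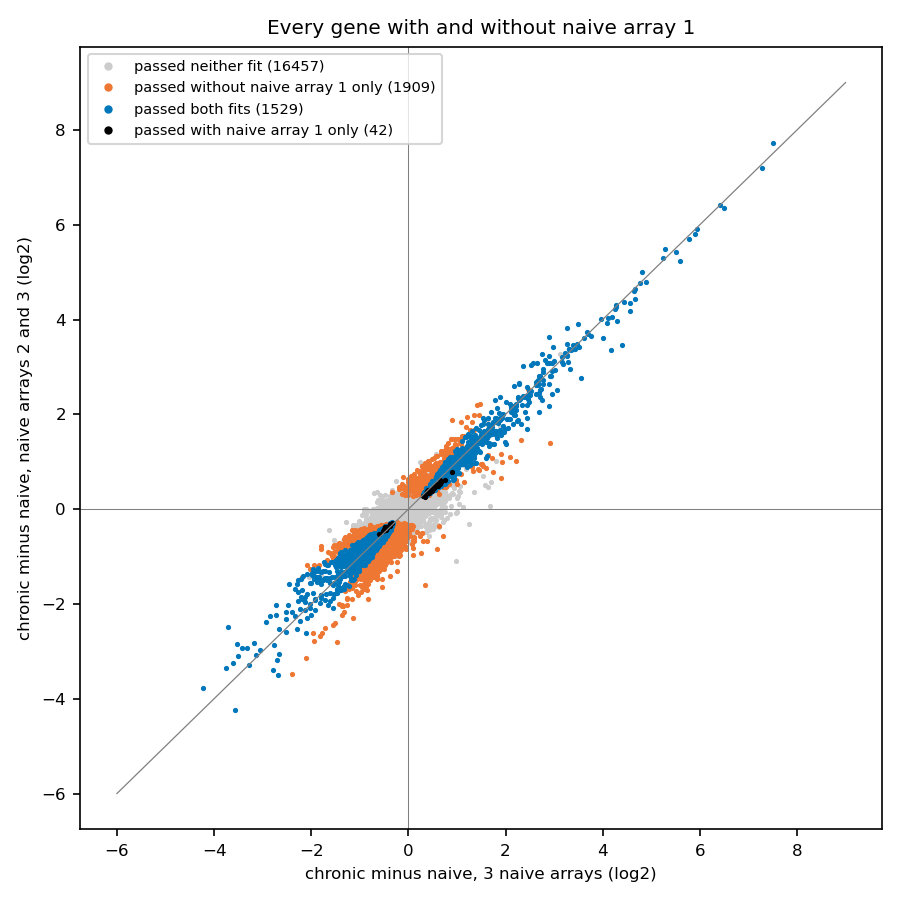
Chronic minus naive difference of every gene (log2) with all 3 naive arrays on the horizontal axis and with naive arrays 2 and 3 only on the vertical axis, coloured by the fits in which the gene passed. The 1529 genes that passed both fits keep their sign, and the 1909 that passed only without naive array 1 lie mostly within 2 units of 0.

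Il10, Il5, Il13 and Il9 showed the largest rises, followed by the receptor gene Lilr4b and by Il4. Il5, which codes for the eosinophil growth factor, read 5.01, 5.15 and 5.31 on the naive arrays and 12.43, 12.31 and 12.54 on the chronic arrays, a difference of 7.27 ± 0.10 (SE, adjusted p = 6.8e-09). Il13, the cytokine of mucus production, read 6.04, 6.37 and 6.57 in naive cells and 12.78, 12.73 and 12.98 in chronic cells (6.50 ± 0.14, adjusted p = 6.4e-08). The chronic arrays thus sat far above the naive ones with a spread of under 0.3 in both genes. Il9, a mast cell and mucus cytokine, rose from 5.56, 5.57 and 5.55 to 12.21, 11.97 and 11.76 (6.42 ± 0.12, adjusted p = 3.6e-08). Il4, the cytokine that induces Th2 cells and IgE switching, rose from 5.90, 6.15 and 6.13 to 11.97, 11.93 and 11.96 (5.89 ± 0.20, adjusted p = 6.5e-07). Il10, an anti-inflammatory cytokine, read 5.48, 4.97 and 4.70 in naive and 12.64, 12.62 and 12.43 in chronic cells (7.52 ± 0.23, adjusted p = 3.5e-07). For all 5 cytokines the naive level lay under the olfactory background or, for Il13 on 1 array, just above it, so the size of these differences, and their order, is limited by the array's floor in naive cells. Without naive array 1 the differences were between 5.81 for Il4 and 7.73 for Il10.

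**Figure D2:**
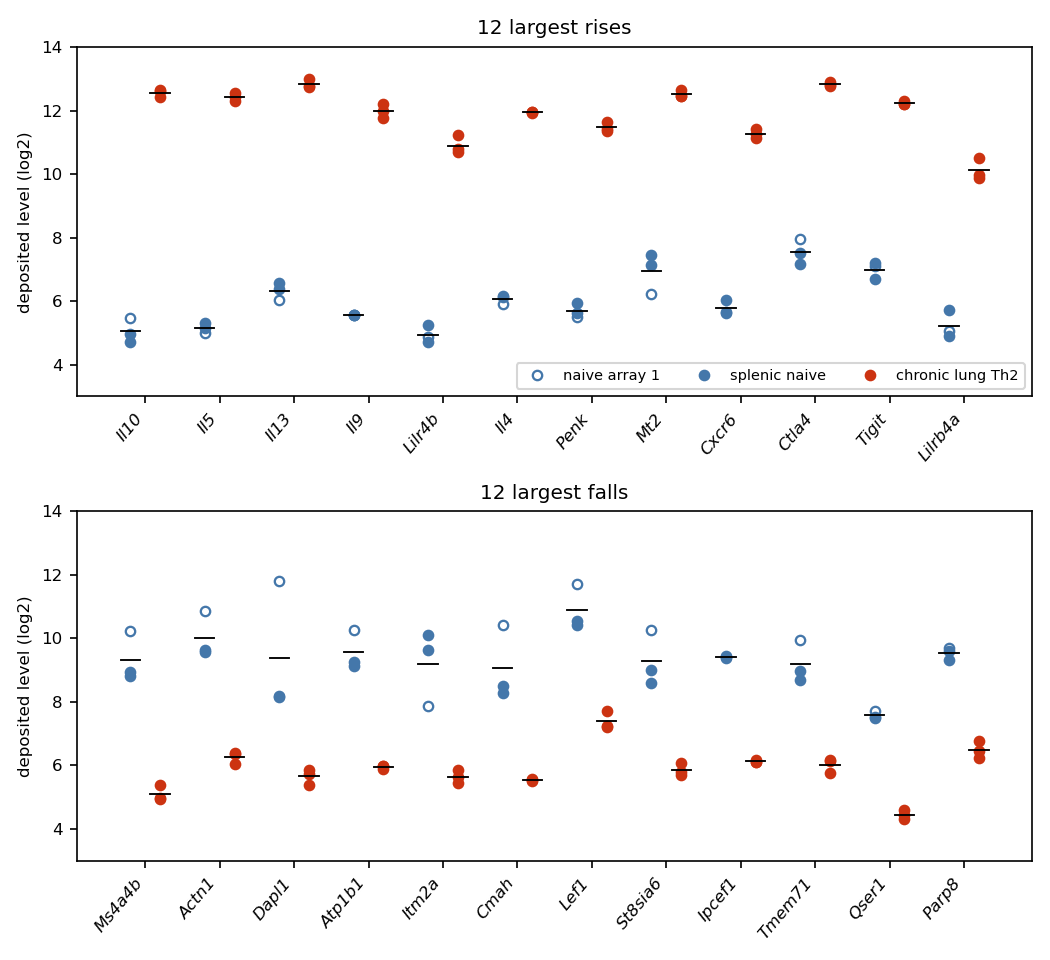
Deposited log2 level of the 12 largest rises (top) and the 12 largest falls (bottom) among genes that passed both fits, on each of the 3 naive arrays (blue, naive array 1 open) and 3 chronic arrays (red); black lines are group means. Among the rises the naive arrays lie between 4.70 and 7.96 and the chronic arrays between 9.88 and 12.98, and among the falls naive array 1 is the highest naive array for 10 of the 12 genes.

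Il4, Il13 and Il5 lie in the type 2 cytokine cluster of mouse chromosome 11, and Il9 lies on chromosome 13. Promoters of these genes are shown because they are the cytokines that rose most besides Il10. The sequences are those of RefSeq on GRCm38.p6, from 250 bases before to 50 after the start of transcription, read 5′ to 3′ on the gene's strand, with capitals at matches to a GATA core (AGATAA), an AP-1 element (TGANTCA) or an NFAT core (GGAAAA) on either strand.
Il13, chr11:53634653-53634952, minus strand: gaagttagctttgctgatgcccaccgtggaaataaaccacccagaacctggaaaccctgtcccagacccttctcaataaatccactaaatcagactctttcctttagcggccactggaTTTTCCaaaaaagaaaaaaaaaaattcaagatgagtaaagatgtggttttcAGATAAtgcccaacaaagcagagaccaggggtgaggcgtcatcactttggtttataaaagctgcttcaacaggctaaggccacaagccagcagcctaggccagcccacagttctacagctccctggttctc
Il4, chr11:53618616-53618915, minus strand: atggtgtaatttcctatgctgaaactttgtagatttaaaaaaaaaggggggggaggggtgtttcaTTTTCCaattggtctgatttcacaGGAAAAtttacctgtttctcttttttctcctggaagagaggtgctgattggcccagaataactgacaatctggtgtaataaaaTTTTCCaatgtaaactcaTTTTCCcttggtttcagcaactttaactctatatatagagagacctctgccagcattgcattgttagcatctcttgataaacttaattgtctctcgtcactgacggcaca
Il9, chr13:56482208-56482507, minus strand: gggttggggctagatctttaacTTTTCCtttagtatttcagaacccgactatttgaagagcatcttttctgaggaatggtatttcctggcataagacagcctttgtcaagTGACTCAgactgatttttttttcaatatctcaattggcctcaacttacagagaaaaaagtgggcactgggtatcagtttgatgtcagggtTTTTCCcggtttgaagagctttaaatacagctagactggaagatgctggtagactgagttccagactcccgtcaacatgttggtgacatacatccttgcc
The Il13 window holds 1 GATA core (AGATAA) and 1 NFAT core (TTTTCC on the printed strand). The Il4 window holds 4 NFAT cores and the Il9 window 1 AP-1 element (TGACTCA) and 2 NFAT cores, while these letters were not found in the Il5 window (chr11:53720544-53720843, plus strand) or at a second Il4 start. Among the 12 largest rises, 9 genes have an entry, and the GATA core was found for 2, the AP-1 element for 2 and the NFAT core for 5 of them. Among the 11 falls with an entry the counts were 4, 1 and 3. Over all 27025 genes with an entry the counts were 3432, 2425 and 7062. Some genes have several promoters, and the 11 falls have 17. Of all 32851 promoters taken singly, 11.2% hold the GATA core, 7.81% the AP-1 element and 23.4% the NFAT core. A match describes the letters only.

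Of the 25 measured type 2 cytokines and lineage factors, 18 rose and 0 fell, with a median difference of 2.49 (19 and 1, median 2.39, without naive array 1). Gata3, the factor that sets the Th2 fate, read 9.63, 8.44 and 8.24 in naive cells and 11.69, 11.69 and 11.90 in chronic cells (2.98 ± 0.31, adjusted p = 0.00068). Its naive array 1 value lay over 1 unit above the other naive arrays, and without that array the difference was 3.41 (adjusted p = 5.4e-07). Pparg, the nuclear receptor of fatty acid sensing that lung Th2 cells are known for, rose from 6.80, 6.80 and 6.95 to 10.15, 10.29 and 9.91 (3.27 ± 0.17, adjusted p = 7.7e-06). The Th2 homing receptors Ccr4 and Ccr8 rose by 4.56 ± 0.29 and 4.18 ± 0.60. In Ccr8 the naive arrays ranged from 5.50 to 8.41 and the chronic arrays from 10.97 to 11.53, without overlap.

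Among 31 other T cell cytokines and growth factors, 11 rose and 2 fell with all arrays (median 0.54), and 12 rose and 10 fell without naive array 1 (median 0.34). Penk, the precursor of enkephalin opioid peptides, rose most, from 5.50, 5.64 and 5.93 to 11.43, 11.64 and 11.35 (5.78 ± 0.14, adjusted p = 8.3e-08). Il3, a growth factor of basophils and mast cells, was scattered: 4.23, 7.34 and 6.74 in naive cells and 10.11, 8.91 and 12.47 in chronic cells (4.39 ± 0.98, adjusted p = 0.030), and it passed in only 4 of the 9 fits that leave out 1 array. Il21, a cytokine that helps B cells, rose by 3.17 ± 0.16, from between 4.63 and 5.06 to between 7.98 and 8.09. Il17f, a neutrophil-recruiting cytokine, rose by 3.16 ± 0.39, with chronic arrays at 9.56, 8.70 and 10.54. Tnfsf8, the ligand of CD30, read 7.66, 9.84 and 9.86 in naive and 11.85, 11.81 and 12.40 in chronic cells (2.90 ± 0.52, adjusted p = 0.012).

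Some genes of other T helper fates rose as well. Of 24 Th1 and cytotoxic genes, 6 rose and 3 fell (median 0.23; 8 and 3 without naive array 1; 6 and 6, median -0.18, with the olfactory medians set equal). Without chronic array 1 or chronic array 2, none of the 3 falls passed. Gzmb, the cytotoxic granule protease granzyme B, read 4.67, 5.49 and 5.05 in naive cells and 10.00, 10.06 and 8.83 in chronic cells (4.56 ± 0.34, adjusted p = 8.9e-05), with chronic array 3 about 1 unit below the other chronic arrays. Ifng, the Th1 cytokine interferon gamma, rose from 5.67, 6.09 and 6.29 to 7.80, 7.91 and 7.70 (1.79 ± 0.17, adjusted p = 0.00034) and Tbx21, the Th1 master regulator, by 1.75 ± 0.33 (7 fits). Klrg1, an inhibitory receptor of effector cells, rose by 2.72 ± 0.21, and Crtam, an adhesion molecule induced by activation, fell by 2.10 on the log2 scale (7 fits).

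All 10 measured Th17 genes had positive differences and 5 rose (median 1.56; also 5 without naive array 1). They were Ahr (3.41 ± 0.12), the aryl hydrocarbon receptor, Il17f, the AP-1 family factor Batf (2.30 ± 0.16), Rora (1.83 ± 0.31) and Stat3 (1.26 ± 0.15). Of 18 regulatory T cell genes 11 rose and 0 fell (median 1.29; 13 and 1 without naive array 1). With the olfactory medians set equal, 7 passed as higher and 2 as lower. Ctla4, the inhibitory counterpart of CD28, read 7.96, 7.51 and 7.16 in naive and 12.79, 12.90 and 12.77 in chronic cells (5.28 ± 0.17, adjusted p = 5.3e-07). Entpd1, the ectonucleotidase CD39, rose by 2.82 ± 0.25 and Capg, an actin capping protein, by 1.91 ± 0.25. The lineage factor Foxp3, named here after its values were seen, was bright in both groups, with 8.96, 9.03 and 9.26 in naive and 10.29, 10.08 and 10.26 in chronic cells (1.13 ± 0.17, adjusted p = 0.0050). Of 15 follicular helper genes 4 rose and 1 fell, and without naive array 1 the counts were 6 and 4. They were 4 and 4 with the olfactory medians set equal. Icos, a costimulatory receptor, rose from 7.75, 8.94 and 8.91 to 12.51, 12.60 and 12.50 (4.0 ± 0.28, adjusted p = 5.7e-05). Tox2, a transcription factor of these cells, rose by 2.21 ± 0.11, while the inhibitory receptor Btla fell by 1.19 on the log2 scale (adjusted p = 0.047, 3 fits).

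Several inhibitory and costimulatory receptors rose. Of 31 inhibitory and costimulatory receptors, 10 rose and 3 fell (median 0.74), 14 rose and 8 fell without naive array 1 (median 0.37), and 5 fell without chronic array 3. Tigit, a receptor that competes for CD155 and dampens T cells, read 7.09, 6.68 and 7.19 in naive and 12.20, 12.20 and 12.31 in chronic cells (5.25 ± 0.13, adjusted p = 8.5e-08). Lilr4b rose from 4.87, 4.71 and 5.25 to 10.69, 10.77 and 11.21 (5.95 ± 0.18, adjusted p = 3.5e-07) and Lilrb4a from 5.07, 4.91 and 5.73 to 9.88, 9.97 and 10.50 (4.88 ± 0.23, adjusted p = 5.2e-06). These are immunoglobulin-like receptors of neighbouring genes with closely similar sequences, and signal of either gene may reach the probes of the other.

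Of 21 chemokine receptors 8 rose and 1 fell (median 0.21; 9 and 1 without naive array 1). With the olfactory medians set equal 6 passed as higher and 3 as lower, and the median was -0.20. Cxcr6, a receptor that retains T cells in lung and liver, read 5.61, 5.66 and 6.03 in naive and 11.13, 11.26 and 11.43 in chronic cells (5.51 ± 0.13, adjusted p = 8.2e-08). Ccr2, a receptor for inflammatory monocyte chemokines, rose from 4.86, 4.96 and 4.76 to 9.59, 9.83 and 9.48 (4.77 ± 0.11, adjusted p = 8.2e-08), and Ccr1 by 3.31 ± 0.20. The receptor that fell was Ccr7, the lymph node homing receptor, named here after its values were seen, with 11.76, 10.91 and 11.28 in naive and 8.90, 9.13 and 9.47 in chronic cells (-2.15 ± 0.26, adjusted p = 0.0017).

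Integrins gave 3 rises and 2 falls among 20 genes (5 and 2 without naive array 1, and 2 and 4 with the olfactory medians set equal). Itgb8, whose product activates latent TGF-beta, rose from 6.10, 6.17 and 6.03 to 10.23, 10.40 and 10.49 (4.28 ± 0.11, adjusted p = 1.5e-07). Itgae, the epithelial retention integrin CD103, rose from between 5.64 and 5.92 to between 7.29 and 7.68 (1.71 ± 0.13, adjusted p = 0.00010). Itga6, a laminin receptor subunit, fell by 2.19 on the log2 scale (adjusted p = 0.0083). Of 33 interleukin receptors 7 rose and 4 fell, 11 and 6 did so without naive array 1, and 2 fell without acute array 2 or 3 or chronic array 1 or 2. With the olfactory medians set equal, 6 passed as higher and 7 as lower. Il1r2, the decoy receptor for IL-1, rose most (4.66 ± 0.24, adjusted p = 7.7e-06), with naive arrays at 5.37, 5.94 and 6.17 and chronic arrays at 10.59, 10.80 and 10.08. Il10ra, the receptor for IL-10, rose by 2.76 ± 0.15, and Il2rb, a subunit of the IL-2 and IL-15 receptors, by 2.17 ± 0.13. The receptors for IL-6 and IL-21 went the other way, with Il6ra at -1.99 ± 0.45 (3 fits, -1.34 without naive array 1, which read 10.66 against 8.67 and 8.77) and Il21r at -1.92 ± 0.13.

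Of 24 genes of tissue residency, 8 rose and 0 fell (median 0.50), but 10 rose and 7 fell without naive array 1, and 6 rose with the olfactory medians set equal. Prdm1, the transcription factor Blimp-1, read 6.28, 6.18 and 6.18 in naive and 10.22, 10.32 and 10.01 in chronic cells (3.97 ± 0.09, adjusted p = 8.2e-08). Rgs1, a regulator of G protein signalling that limits egress, rose from 9.44, 8.63 and 9.02 to 11.80, 11.74 and 12.20 (2.89 ± 0.20, adjusted p = 5.6e-05). Among 30 S100, annexin, galectin and related effector genes, 11 rose and 0 fell (median 0.55), 17 rose and 1 fell without naive array 1 (median 0.85), and 7 rose without chronic array 2. Anxa2, a membrane-binding annexin, rose by 2.38 ± 0.11, from between 5.72 and 5.83 to between 7.98 and 8.24. Lgals1, the lectin galectin-1, read 9.71, 7.25 and 7.74 in naive and 11.31, 11.36 and 10.73 in chronic cells, a difference of 2.90 ± 0.54 (7 fits) that became 3.63 without naive array 1. Vim, the intermediate filament vimentin, showed the same split of the naive arrays, at 11.60 against 9.73 and 9.45, and rose by 2.36 ± 0.48 (6 fits).

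Many genes listed for the naive state fell. The list, like the others, was chosen with earlier results of these data known. Its members Actn1 and Atp1b1 are also among the 12 largest falls, so its count is no independent result. Of 40 genes of naive homing and quiescence 21 fell and 0 rose (median -1.65), and 25 fell and 5 rose without naive array 1 (median -1.13). Over the fits that left out 1 array between 14 and 25 fell. Ms4a4b, a membrane protein of resting T cells, read 10.23, 8.93 and 8.81 in naive and 4.93, 4.98 and 5.38 in chronic cells (-4.23 ± 0.36, adjusted p = 0.00020). Actn1, which codes for the actin crosslinker alpha-actinin 1, fell from 10.85, 9.59 and 9.63 to 6.39, 6.04 and 6.38 (-3.76 ± 0.30, adjusted p = 0.00014). Lef1, a transcription factor of the Wnt pathway, fell from 11.71, 10.56 and 10.42 to 7.22, 7.25 and 7.72 (-3.50 ± 0.32, adjusted p = 0.00028). In each of these genes naive array 1 was the highest array, over 1 unit above the other naive arrays, and the fall was smaller without it, at -3.78, -3.34 and -3.10.

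Dapl1 also moved with that array, with 11.80, 8.14 and 8.19 in naive and 5.87, 5.74 and 5.40 in chronic cells. Its difference was -3.71 ± 0.84 with all arrays (adjusted p = 0.032, passing in 3 of the 9 fits that leave out 1 array) and -2.49 without naive array 1 (adjusted p = 2.0e-05). Itm2a, a membrane protein of thymocytes and T cells, went the other way, with naive array 1 lowest at 7.87 against 10.11 and 9.65, and fell by 3.56 with and 4.23 without that array. Cmah, which makes the sialic acid N-glycolylneuraminic acid, read 10.41, 8.50 and 8.30 in naive and between 5.52 and 5.58 in chronic cells, and fell by 3.53 with and 2.86 without naive array 1. St8sia6, a sialyltransferase, fell by 3.42 with and 2.94 without it. Ipcef1 and Parp8 moved little with naive array 1, to -3.29 and -2.98 without it. Ipcef1, a partner of cytohesin exchange factors, read 9.41, 9.39 and 9.46 in naive and 6.12, 6.17 and 6.12 in chronic cells (-3.28 ± 0.11, adjusted p = 5.6e-07). Parp8, an ADP-ribosyltransferase, fell from 9.69, 9.32 and 9.62 to 6.44, 6.25 and 6.77 (-3.06 ± 0.21, adjusted p = 5.2e-05). Of 8 GTPases of the GIMAP family, Gimap4 fell by 2.40 on the log2 scale (adjusted p = 0.00028), while Gimap8 rose by 0.36 ± 0.09 (1 fit), with a change of sign (to -0.050) with the olfactory medians set equal.

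**Figure D3:**
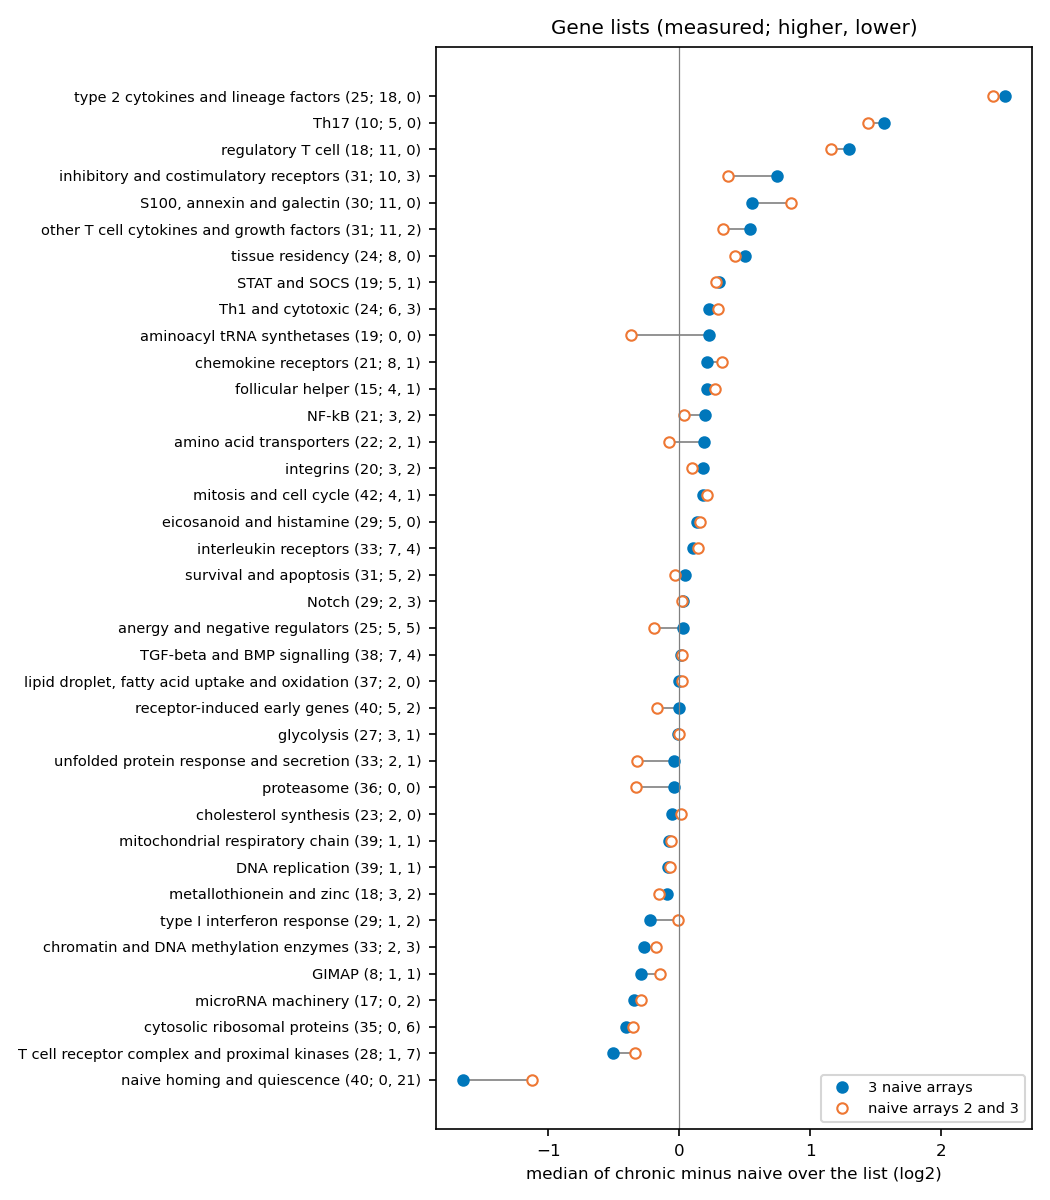
Median chronic minus naive difference (log2) of each of 38 gene lists with all 3 naive arrays (filled) and with naive arrays 2 and 3 only (open); beside each name stand the number of genes measured and, after the semicolon, the numbers that were higher and lower with all arrays. The type 2 list lies highest (2.49) and the naive homing list lowest (-1.65), and 6 medians change sign when naive array 1 is left out: aminoacyl tRNA synthetases, amino acid transporters, anergy and negative regulators, survival and apoptosis, cholesterol synthesis, and lipid droplets.

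The T cell receptor complex and its proximal kinases, 28 genes, showed 1 rise and 7 falls (median -0.51), and 5 rises and 12 falls without naive array 1 (median -0.34). Leaving out chronic array 1 gave 3 falls, and leaving out chronic array 2 or any acute array gave 4. Txk, a Tec family kinase, fell by 2.85 on the log2 scale, from 10.48, 8.92 and 8.48 to 6.45, 6.32 and 6.56 (adjusted p = 0.0050). Prkcq, the protein kinase C theta of the T cell synapse, fell by 1.73 with all arrays (3 fits) and by 1.15 without naive array 1. Fyn, a Src family kinase, fell by 1.04 on the log2 scale (adjusted p = 0.0035) and Ptprc, the phosphatase CD45, by 1.0 (adjusted p = 0.011). Of 25 anergy genes and negative regulators of signalling, 5 rose and 5 fell (7 and 10 without naive array 1, and 4 and 8 with the olfactory medians set equal). Socs2, a suppressor of cytokine signalling, rose from 6.01, 6.72 and 5.95 to 9.51, 9.97 and 9.75 (3.52 ± 0.20, adjusted p = 1.9e-05). The phosphatase genes Ptpn13 and Dusp16 rose by 2.63 ± 0.15 and 2.43 ± 0.35. Dgka, a kinase that removes diacylglycerol, fell by 2.01 on the log2 scale, and the ubiquitin ligase gene Cblb fell by 1.39 (5 fits).

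Counts for genes that the T cell receptor induces moved with naive array 1. Over all genes the shares went from 3.68% to 5.84% higher and from 4.2% to 11.4% lower without it. Of 40 receptor-induced early genes, 5 rose and 2 fell with all arrays (median 0.00), and 9 rose and 15 fell without naive array 1 (median -0.17). Leaving out any other array gave 3 rises, except 5 without naive array 3, and 4 genes fell without chronic array 3. Ier3, an immediate early gene, rose by 2.36 ± 0.21 and Dusp4, a phosphatase of MAP kinases, by 2.00 ± 0.29, while Dusp2, a phosphatase of the same family, fell by 1.65 on the log2 scale. Tnf, the inflammatory cytokine, read 7.65, 10.71 and 11.01 in naive and 6.98, 6.96 and 8.24 in chronic cells. Its difference was -2.40 ± 0.81 with all arrays (adjusted p = 0.11) and -3.47 without naive array 1 (adjusted p = 0.00040). Lta, the neighbouring lymphotoxin gene, read 6.74, 9.20 and 9.33 against 6.47, 6.62 and 6.70 (-1.83, adjusted p = 0.097, and -2.67, adjusted p = 1.7e-06). Hivep3, a zinc finger protein, read 7.10, 10.06 and 10.36 against 7.12, 6.90 and 7.18, so naive array 1 lay among the chronic arrays. Slc7a11, the cystine transporter, read 4.38 on naive array 1, below every chronic array (5.85, 5.39 and 5.51), and 8.47 and 8.30 on the other naive arrays. Il2, named here after its values were seen, read 9.95, 8.95 and 11.70 in chronic cells and did not pass in either fit (0.98 ± 1.54, adjusted p = 0.70, and -1.10, adjusted p = 0.30).

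**Figure D4:**
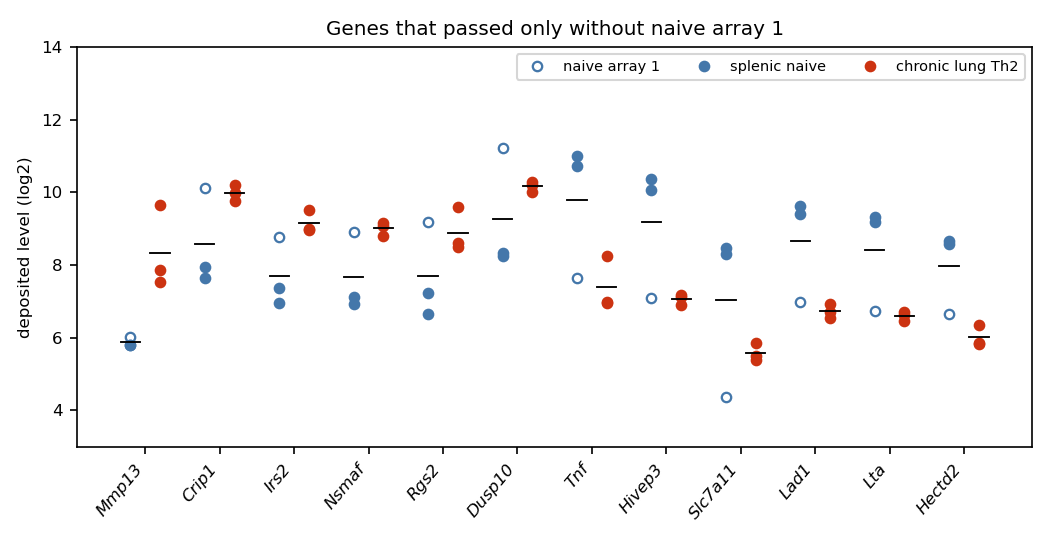
Deposited log2 level of the 12 genes with the largest differences among those that passed only when naive array 1 was left out, on each naive array (blue, naive array 1 open) and chronic array (red); black lines are group means. For Tnf, Lta and Hivep3 naive array 1 lies with or near the chronic arrays, for Dusp10 it lies above them, and for Mmp13 it lies with the other naive arrays while the chronic arrays range from 7.53 to 9.64.

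Some rises were likewise seen only without that array. Dusp10, a phosphatase of stress-activated kinases, read 11.22 on naive array 1, above the chronic arrays at 10.00, 10.20 and 10.28, and 8.24 and 8.34 on the others (0.90 with it, adjusted p = 0.41, and 1.87 without it, adjusted p = 2.9e-05). Crip1, a LIM protein, read 10.12, 7.65 and 7.95 against 9.97, 9.77 and 10.22. Irs2, an insulin and IL-4 receptor substrate, read 8.77, 6.96 and 7.38 against 8.96, 8.99 and 9.53 (1.45, adjusted p = 0.063, and 1.99, adjusted p = 0.00018). Among the sort markers, Cd44 read 7.61, 7.30 and 7.72 in naive and 9.18, 9.44 and 9.66 in chronic cells (1.89 ± 0.18, adjusted p = 0.00033); the naive sort took CD44- cells. Cd69, part of the lung gate, read 10.59, 12.08 and 12.20 in the stimulated naive cells and 10.24, 10.22 and 11.14 in chronic cells (-1.09 ± 0.43, adjusted p = 0.16, and -1.61, adjusted p = 0.0046, without naive array 1). Cd4 differed by -0.19 ± 0.30 (adjusted p = 0.70).

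Metallothioneins, which bind zinc and copper, stood out among the 18 zinc genes, of which 3 rose and 2 fell (3 and 6 without naive array 1, and 3 and 0 without naive array 2 or chronic array 1). Mt2 read 6.24, 7.15 and 7.46 in naive and 12.47, 12.47 and 12.65 in chronic cells (5.58 ± 0.26, adjusted p = 5.1e-06), and Mt1 rose by 2.64 ± 0.25. The zinc importer Slc39a8 rose by 2.25 ± 0.26 and Slc39a10, another importer, fell by 0.53 on the log2 scale (7 fits). Of 29 eicosanoid and histamine genes 5 rose and 0 fell (median 0.13; 3 and 2, median -0.28, with the olfactory medians set equal). The receptors for cysteinyl leukotrienes, lipid mediators of asthma, led them: Cysltr1 read 5.89, 5.59 and 5.86 against 9.10, 9.39 and 9.05 (3.40 ± 0.15, adjusted p = 3.8e-06). Cysltr2 read 3.64, 3.36 and 3.49 against 6.56, 6.68 and 6.90 (3.22 ± 0.16, adjusted p = 6.4e-06), just above the olfactory background. Ptger2, a receptor for prostaglandin E2, rose by 1.80 ± 0.29.

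The metabolic lists are read against 3.68% higher and 4.2% lower over all genes. With the olfactory medians set equal, the lipid droplet list gave 2 higher and 8 lower genes and the glycolysis list 1 and 7. Cholesterol synthesis then gave 2 and 5, amino acid transporters 2 and 2, and the respiratory chain 0 and 5. Of 37 genes of lipid droplets, fatty acid uptake and oxidation 2 rose and 0 fell (7 and 5 without naive array 1), namely Pparg and Plin2, a lipid droplet coat protein that read 6.56, 6.47 and 6.53 against 8.61, 8.82 and 8.76 (2.21 ± 0.13, adjusted p = 1.7e-05). Of 23 cholesterol synthesis genes 2 rose, Hsd17b7 by 1.35 ± 0.30 (5 fits) and Sc5d by 1.30 ± 0.11. Of 27 glycolysis and hypoxia genes 3 rose and 1 fell (4 and 5 without naive array 1, and 1 rise without chronic array 1): Egln3, a hypoxia-induced prolyl hydroxylase, by 2.71 ± 0.12, the hypoxia factor Hif1a by 1.39 ± 0.29 (5 fits) and the enzyme Tpi1 by 1.13 ± 0.21 (8 fits), while the glucose transporter Slc2a3 fell by 0.82 on the log2 scale. Among 22 amino acid transporters Slc7a8 and Slc36a4 rose and Slc16a10 fell (1 fit), 2 rose and 5 fell without naive array 1, and among 39 respiratory chain genes 1 rose and 1 fell (1 and 3 without naive array 1).

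Of 38 TGF-beta and BMP signalling genes 7 rose and 4 fell (8 and 8 without naive array 1, 2 falls without naive array 2 and 1 without chronic array 1). With the olfactory medians set equal, 5 passed as higher and 13 as lower. Besides Itgb8, Bmpr2, the type II BMP receptor, read 7.64, 7.27 and 7.56 against 10.67, 10.59 and 11.13 (3.30 ± 0.17, adjusted p = 9.6e-06). Furin, the protease that matures TGF-beta, rose by 2.49 ± 0.23, Id2, a target of the pathway, by 2.28 ± 0.29 and the activin receptor Acvr2a by 1.53 ± 0.14. Of 29 Notch genes 2 rose and 3 fell (4 and 5 without naive array 1): the DNA-binding effector Rbpj (2.00 ± 0.44, 3 fits) and Notch1 (0.70 ± 0.15, 2 fits) were higher, and the glycosyltransferases Lfng and Mfng and the coactivator Maml3 were lower (-1.55 in 5 fits, -1.13 and -0.82 in 8 fits). Neither rise passed without acute array 2 or 3 or any 1 chronic array, and 1 of the falls passed without chronic array 2. With the olfactory medians set equal, 1 Notch gene passed as higher and 7 as lower. Of 19 STAT and SOCS genes 5 rose and 1 fell (7 and 2 without naive array 1, and 3 rises without naive array 2, any acute array, chronic array 2 or chronic array 3), among them Stat5a by 1.45 ± 0.24 and Stat3. Of 21 NF-kB genes 3 rose and 2 fell (4 and 4 without naive array 1). Tnip3, a binding partner of the inhibitor A20, rose from 5.76, 5.47 and 5.66 to 8.81, 9.23 and 8.78 (3.31 ± 0.20, adjusted p = 2.1e-05), and Bcl3 by 1.17 ± 0.09. Of 31 survival and apoptosis genes 5 rose and 2 fell, with 3 rises without naive array 3 or chronic array 2 and 0 falls without chronic array 1 or 2. With the olfactory medians set equal, 3 passed as higher and 7 as lower. Tnfsf10, the death ligand TRAIL, rose by 2.74 ± 0.38 and the inflammatory caspase Casp4 by 2.69 ± 0.30, while Bcl2l11, the death inducer BIM, fell by 1.47 on the log2 scale (7 fits).

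Among 29 type I interferon response genes 1 rose and 2 fell, and neither fall passed without acute array 2 or 3 or chronic array 1 or 2. The rise was Ifitm3, an antiviral membrane protein, from 5.25, 5.67 and 5.51 to 9.41, 8.98 and 9.34 (3.77 ± 0.23, adjusted p = 2.5e-05), and Samd9l fell by 1.96 on the log2 scale (5 fits). Of 42 mitosis and cell cycle genes 4 rose and 1 fell, 5 rose and 4 fell without naive array 1, 7 rose without chronic array 3, and 2 rose without any 1 of naive arrays 2 and 3, acute arrays 2 and 3 and chronic arrays 1 and 2. Over all genes 3.68% rose and 4.2% fell, and 5.84% and 11.4% without naive array 1. With the olfactory medians set equal, 5 of the 42 passed as higher and 7 as lower. Mki67, the proliferation antigen, read 6.14, 6.30 and 6.25 in naive and 7.69, 7.15 and 6.77 in chronic cells (0.97 ± 0.23, adjusted p = 0.036, 3 fits). Cdk6, a cyclin-dependent kinase, rose by 2.32 ± 0.40. DNA replication genes gave 1 rise and 1 fall in 39 (2 and 5 without naive array 1), and 0 and 16 with the olfactory medians set equal. That scaling gave 314 higher and 3285 lower among all 19937 genes. Of 35 cytosolic ribosomal protein genes 6 fell and 0 rose (median -0.40), 11 fell without naive array 1, 22 with the olfactory medians set equal, and 2 or 3 without naive array 2, acute array 2 or 3, or chronic array 1 or 2. The falls were small, such as Rpl8 at -0.61 ± 0.10 and Rps28 at -0.60 ± 0.10.

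Counts for protein folding, tRNA charging and degradation also moved with naive array 1. Over all genes the share that fell went from 4.2% to 11.4% without it. Unfolded protein response and secretion genes gave 2 rises and 1 fall among 33 with all arrays, 3 rises and 10 falls without naive array 1, and 0 rises without acute array 2 or 3 or chronic array 1. With the olfactory medians set equal, 0 passed as higher and 5 as lower. None of 19 aminoacyl tRNA synthetase genes and none of 36 proteasome genes passed limma's test with all arrays. At an unadjusted p under 0.05 in that fit stood 1 and 6 of them, against 5101 of all 19937 genes. Without naive array 1, 4 and 6 fell, while 2 proteasome genes rose without naive array 2. Iars, for example, read 9.47 on naive array 1, 11.03 and 11.36 on the other naive arrays, and 11.50, 11.38 and 11.25 on the chronic arrays. Of 17 microRNA machinery genes 2 fell, Ago1 (-0.57, 2 fits) and Dicer1 (-0.48, 7 fits), with 5 without naive array 1, 0 without naive array 2 or chronic array 1, and 0 after a second quantile normalisation. Of 33 chromatin and DNA methylation enzymes 2 rose and 3 fell (3 and 8 without naive array 1, and 1 and 12 with the olfactory medians set equal). Ezh2, the methyltransferase of histone H3 lysine 27, rose by 1.21 ± 0.20 and Tet2 by 0.89 ± 0.14, and Cbx7, a Polycomb reader, fell by 1.58 on the log2 scale.

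Markers of T cell identity were bright in both groups, with list medians of 10.84, 9.49 and 9.60 on the naive arrays and between 10.13 and 10.26 on the chronic arrays. Of these 9 genes Cd5, an inhibitory surface receptor, fell by 1.15 on the log2 scale, from 11.01, 11.38 and 11.72 to 10.26, 10.17 and 10.24. None rose with all arrays, and 3 rose without naive array 1. In limma's fit 4 of the 9 had an unadjusted p under 0.05, against 5101 of all 19937 genes. Most markers of other cells that a lung or spleen sort could hold lay under the olfactory background. Both group means lay under it for 9 of 10 B cell, 6 of 6 NK cell, 15 of 16 macrophage and monocyte, 10 of 13 dendritic cell, 12 of 13 neutrophil and 14 of 19 lung epithelium genes. The medians of these lists lay between 4.58 and 6.12 on the naive arrays and between 4.63 and 6.35 on the chronic arrays. In the other lists it was 6 of 8 eosinophil, 10 of 13 mast cell and basophil and 9 of 16 endothelium and stroma genes. It was 3 of 5 erythroid and platelet, 1 of 2 CD8 T cell and 0 of 10 group 2 innate lymphoid cell genes. The CD8 list medians were 7.04, 6.68 and 6.57 on the naive and 6.54, 6.48 and 6.44 on the chronic arrays. Passing members were Cd79a of B cells, which fell by 0.61 on the log2 scale (1 fit; 2 other B cell genes rose without chronic array 3), Ccr3 of eosinophils (1.08 ± 0.08), Gata2 and Hdc of mast cells and basophils (0.37 ± 0.08, 5 fits, and 0.95 ± 0.17), Sftpa1 of lung epithelium (0.54 ± 0.11, 6 fits) and Fn1 of stroma (0.39 ± 0.10, 1 fit). Gata2 and Fn1 changed sign with the olfactory medians set equal. Of 10 genes of group 2 innate lymphoid cells 7 rose, such as Gata3, Il5, Icos and Klrg1, all of which Th2 cells also express. Among 17 genes of dissociation stress 1 rose (Nfkbiz, 0.77 ± 0.19, 3 fits) and 2 fell (Btg2, -1.43, 7 fits, and Ier2, -0.72, 3 fits), with 3 rises and 3 falls without naive array 1 and 0 falls without chronic array 1 or 2. In such bulk samples a smaller share of cells and less RNA per cell cannot be told apart.

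The acute lung Th2 cells differ in stage and day but not in tissue. Between the chronic and the acute stage 6 of 19937 genes passed (0.0301%), 3 in each direction, and 2962 did so at an unadjusted p under 0.05. Of the 6, 5 also differed from naive cells. Shtn1, a neuronal polarity protein, read 5.80, 5.71 and 5.77 in naive, between 9.0 and 9.18 in acute and 9.86, 10.13 and 10.13 in chronic cells. It was 4.28 ± 0.10 above naive and 0.98 ± 0.10 above acute cells (adjusted p = 0.023). Arnt2, a partner of bHLH-PAS transcription factors, was 2.70 ± 0.11 above naive and 1.07 ± 0.11 above acute cells. Foxb1, a forkhead factor, read 6.20, 6.02 and 6.38 in naive, 6.75, 6.70 and 6.81 in acute and 7.87, 8.14 and 8.24 in chronic cells. These 3 genes were higher on every chronic array than on every other array.

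Hdc and Grp were above naive cells at both stages and lower in the chronic stage. Hdc, histidine decarboxylase, which makes histamine, read 6.48, 6.54 and 6.73 in naive, 9.66, 9.15 and 9.19 in acute and 7.46, 7.35 and 7.80 in chronic cells, a chronic minus acute difference of -1.80 ± 0.17 (adjusted p = 0.023). Grp, the bronchial neuropeptide gastrin-releasing peptide, read 6.26, 6.15 and 6.54, then 8.87, 8.74 and 8.82, then 7.35, 7.48 and 6.93, a difference of -1.55 ± 0.16. In neither gene did the acute and chronic arrays overlap. The count rests on few arrays: without naive array 3, chronic array 2 or any of the acute arrays, 0 genes passed between the stages, and the fit with the replicate number as a block gave 0 as well. None of the 12 largest rises or 12 largest falls against naive cells passed between the stages, with differences from -0.62 for Lef1 to 0.64 for Penk, and a p that misses the threshold does not show that the stages are alike.

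**Figure D5:**
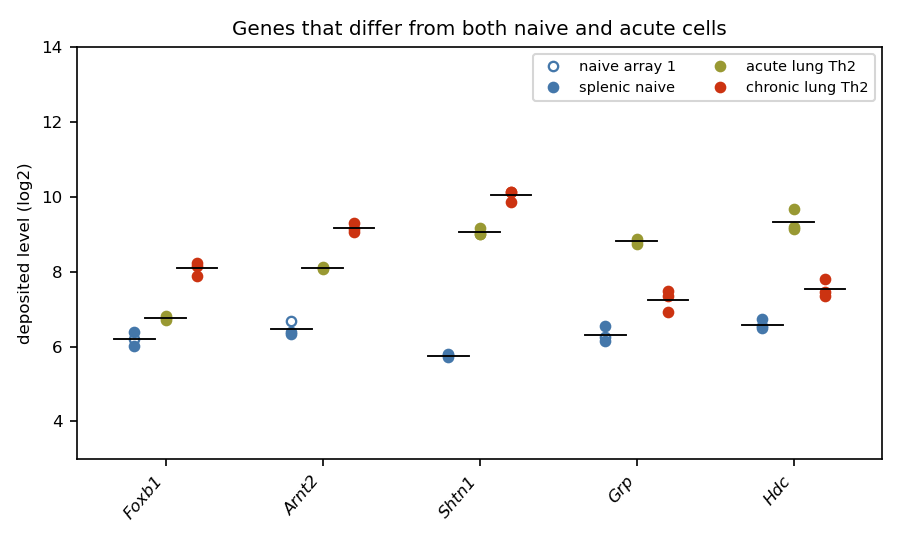
Deposited log2 level of the 5 genes that passed both chronic against naive and chronic against acute, on each of the 3 naive (blue, naive array 1 open), 3 acute (olive) and 3 chronic arrays (red); black lines are group means. Foxb1, Arnt2 and Shtn1 are highest in chronic cells, and Grp and Hdc lie between the naive and the acute arrays.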

How the data were processed

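The authors' deposited values are log2 expression levels of 34760 probe sets of a mouse whole-transcript array, of which 22961 carry a gene in the platform annotation, 21640 exactly 1 and 1321 several. RMA and limma are named in the submitters' processing notes, without versions or parameters, so background correction, quantile normalisation and probe summarisation came before deposit. Scanner intensities were not used here, and the number of arrays limits the precision. Each of 19937 genes is represented by its brightest probe set, by the mean of all arrays (954 genes had more than 1). limma 3.58.1 in R 4.3.3 fitted the 3 groups on all 9 arrays (lmFit, contrasts.fit, eBayes), and p-values were Benjamini-Hochberg adjusted over all genes. No filter was set on dim genes. With 3 arrays against 3 an exact permutation test cannot go below p = 0.1, so the moderated fit was used. The script was tested on simulated data.

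Gene lists were counted, with no set test. Genes named are the 12 largest rises and falls that passed with and without naive array 1 without overlap and above the olfactory background, up to 5 called members of each list (2 where none passed), 6 rises and 6 falls that passed only without naive array 1, those that also passed against acute cells, and the sort markers; 191 in all. Members and lists were chosen with earlier results of these data known. Alternatives are each array left out, naive 1 and chronic 3 left out, 6 arrays, a replicate block, array weights, a trended robust prior, dim genes left out, means of probe sets, repeated quantile normalisation and equal olfactory medians.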

Additional observations from a re-analysis of the deposited data

Results flagged for a closer look

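For 5 genes the change against naive cells differed between the chronic and the acute stage by limma's direct test of chronic minus acute, adjusted p = 0.023 for each. The differences were 1.33 for Foxb1, 1.07 for Arnt2, 0.98 for Shtn1, -1.55 for Grp and -1.80 for Hdc, with the 3 chronic arrays on the same side of all 3 acute arrays for each gene. Tissue is shared by these stages, while the length of exposure and the age of the mice at harvest change together and cannot be told apart. Hdc is also a marker of mast cells and basophils. Of the 13 genes of that list 10 had chronic and naive means both under the olfactory background, while acute means were not counted against it. The list medians were 5.65, 5.14 and 5.14 on the acute arrays and 5.50, 5.39 and 5.20 on the chronic arrays.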

How the results depend on the processing

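Against naive cells, the counts of higher and lower genes were 734 and 837 with all arrays. Leaving out 1 array gave between 422 and 1200 higher and between 312 and 2274 lower genes, highest for higher genes without chronic array 3, highest for lower genes without naive array 1 and lowest for both directions without chronic array 1. Without naive array 1 and chronic array 3 they were 2031 and 2634, with array weights 2081 and 2594 (naive array 1 had the lowest weight, 0.165), with the 6 arrays compared alone 388 and 298, and with olfactory medians equal 314 and 3285. The replicate block gave 790 and 1054. Between the stages, the counts of higher and lower genes were 3 and 3; they ranged from 0 to 6 and from 0 to 8 with 1 array left out, and were 566 and 521 without naive array 1 and chronic array 3, 3973 and 2748 with array weights, 0 and 0 with the replicate block, 1 higher with the trended prior, 0 lower with the 6 arrays compared, 1 lower after quantile normalisation, and 0 and 44 with olfactory medians equal. The titles do not say whether the replicate numbers pair the arrays. Deviations from the group means correlated across genes from -0.085 to 0.572 for same-numbered arrays of different groups. For differently numbered ones they correlated from -0.557 to 0.441.

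Of 191 named genes 161 passed and 94 did so in every alternative; Fn1 (-0.019), Gata2 (-0.037) and Gimap8 (-0.050) reversed with olfactory medians equal. The alternative on the 6 arrays compared, with fewer arrays to estimate the spread, lost the most, 59. For genes near the olfactory background the naive level is a floor and the size of a rise is limited by it.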

Other observations

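Small nucleolar RNAs, many of which guide the chemical modification of ribosomal RNA, were lower in chronic lung Th2 cells. Counted with them are the small Cajal body RNAs Scarna8, Scarna13 and Scarna17. The group was noticed after its values were seen. Of 54 measured genes 28 fell and 0 rose, with a median difference of -1.0, and 41 fell without naive array 1 (median -0.98), against 4.2% and 11.4% of all genes. In 37 of the 54 all chronic arrays lay below all naive arrays, which held for 12.3% of all genes. Over the alternatives between 14 and 44 fell and 0 rose, and the median ranged from -1.41 to -0.88. Snord53 read 11.88, 12.15 and 12.14 in naive and 10.14, 10.20 and 10.45 in chronic cells (-1.79 ± 0.16, adjusted p = 0.00022). Snord33 read 10.51, 10.96 and 10.81 against 7.68, 8.34 and 9.55 (-2.24 ± 0.43, passing in 7 of the 9 fits that leave out 1 array). Against acute cells 0 of the 54 passed limma's test, with a median difference of -0.06. At an unadjusted p under 0.05 in that test stood 3 of the 54, against 2962 of all 19937 genes. Small nucleolar RNAs are short, many lie in introns of other genes, and how their probes respond to extraction and labelling was not tested.

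Some large rises lie outside the lists and ranks given above and were chosen after their values were seen. Hamp, the iron hormone hepcidin, read 5.21, 5.26 and 5.20 in naive and 9.73, 9.02 and 10.89 in chronic cells (4.66 ± 0.38). Vdr, the vitamin D receptor, rose by 4.10 ± 0.13, from between 5.85 and 6.23 to between 10.04 and 10.15. Cyp11a1, the enzyme that starts steroid synthesis from cholesterol, rose by 3.29 ± 0.31, with chronic arrays at 8.37, 9.18 and 7.93. Perp, a membrane protein of cell death and adhesion, rose by 4.43 ± 0.14, and Epas1, the hypoxia factor HIF-2 alpha, by 3.27 ± 0.21. Each passed with and without naive array 1.

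Genes that passed with a wide spread within a group mostly had the same array at an edge. Of the 1571 genes that passed, 169 spread over more than 1 unit among the naive arrays, and in 165 of these naive array 1 was the highest or the lowest. In 36 the chronic arrays spread over more than 1 unit, and chronic array 3 was the highest or lowest in all 36. Of any 3 arrays 2 are the highest and the lowest. Across genes chronic array 3 correlated with the other chronic arrays at 0.980 and 0.985, and those with each other at 0.990.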
